A study of Homo sapiens with 6 samples.

Results

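The fringe enzymes and protein O-fucosyltransferases were examined in RKO C2 F3 and RKO C2 cells, on every probe set whose RefSeq accession named LFNG, MFNG, RFNG, POFUT1 or POFUT2. All 5 genes, of 927 named genes in the table, were found, on 8 of its 1259 probe sets, with 2 for LFNG, 3 for POFUT1 and 1 for each other gene. RKO is a long-established line of human colon carcinoma cells. RKO C2 F3 (F3) was obtained from the clonal RKO C2 (C2) by fluorescence-activated sorting for cells with little u-PAR, the urokinase receptor, and so shares its RKO background, with no other allele or treatment in the labels. The labels of the 3 F3 arrays call F3 a clonal population, whereas the design text calls it a population, so whether it is 1 clone is unclear. Each of the 2 was measured on 3 arrays, numbered 1 to 3 in both, and the study asked which glycosylation enzyme is deficient in cells where u-PAR fails to mature.

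O-fucose is attached in the endoplasmic reticulum to folded repeats of secreted and membrane proteins. POFUT1 modifies epidermal growth factor (EGF)-like repeats, most prominently those of Notch receptors, and POFUT2 modifies thrombospondin repeats. In the Golgi, the fringe enzymes LFNG (lunatic), MFNG (manic) and RFNG (radical) add N-acetylglucosamine to O-fucose on EGF-like repeats, which alters how Notch responds to its Delta-like and Jagged ligands. In the intestine, Notch signalling maintains progenitor cells and limits the secretory lineage. Urokinase, the ligand of u-PAR, carries O-fucose in its own EGF-like domain.

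RefSeq start-site windows on GRCh38.p14, 250 bases before to 50 after a start, were held for 4 of the 5 genes. Those of LFNG and POFUT1 are shown because these were the genes with more than 1 probe set, each probed on more than 1 transcript. LFNG had 2 windows, both on the plus strand (chr7:2512279-2512578 and chr7:2517613-2517912), and the POFUT1 window was also on the plus strand (chr20:32207630-32207929). Capitals mark a GC box (GGGCGG) or an N box (CACNAG), searched on both strands with overlapping matches counted.
LFNG first start: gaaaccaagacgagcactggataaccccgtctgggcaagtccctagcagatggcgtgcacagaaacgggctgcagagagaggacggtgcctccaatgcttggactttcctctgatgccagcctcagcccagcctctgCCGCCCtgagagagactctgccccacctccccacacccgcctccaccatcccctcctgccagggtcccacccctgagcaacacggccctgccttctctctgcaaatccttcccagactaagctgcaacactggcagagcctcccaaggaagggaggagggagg
LFNG second start: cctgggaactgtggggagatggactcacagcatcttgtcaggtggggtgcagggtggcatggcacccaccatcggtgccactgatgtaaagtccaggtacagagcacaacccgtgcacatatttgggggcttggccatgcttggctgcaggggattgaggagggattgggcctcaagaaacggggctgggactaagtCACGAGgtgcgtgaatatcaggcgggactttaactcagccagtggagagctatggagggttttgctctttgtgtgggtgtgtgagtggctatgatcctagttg
POFUT1: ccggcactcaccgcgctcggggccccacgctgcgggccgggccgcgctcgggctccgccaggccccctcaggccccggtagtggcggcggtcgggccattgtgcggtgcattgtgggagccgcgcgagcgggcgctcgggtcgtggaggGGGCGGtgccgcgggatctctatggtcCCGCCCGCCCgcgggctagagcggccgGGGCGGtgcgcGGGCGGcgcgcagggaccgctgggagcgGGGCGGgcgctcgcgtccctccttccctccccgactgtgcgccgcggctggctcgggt
The first LFNG window held 1 GC box and the second held 1 N box, whereas the POFUT1 window held 6 GC boxes. A GC box, the kind of site bound by Sp1, was found in 45.0% of 35116 windows of this length, and an N box, a site of HES repressors, in 38.0%. RFNG had 4 GC boxes and POFUT2 had 6. The G+C content was 62.3% and 56% in the LFNG windows, 77.7% in that of RFNG, 80.7% in that of POFUT1 and 73.0% in that of POFUT2, against a median of 58.7% over all windows. The core of an RBPJ site (GTGGGAA), through which Notch acts on its targets, was in none of these 5 windows and in 6.25% of all, and the E box CACGTG was also in none of them and in 7.26% of all. A match is only a run of letters, and the absence of one concerns only this window.

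The level of each gene is given with its place among all probe sets. Values are log2 expression from RMA (robust multi-array averaging), and brightness also depends on how well each probe binds, so that the order below is one of signals and not of transcript amounts. RFNG had the highest signal, with a mean log2 expression of 8.27 over the 6 arrays at a percentile of 78.7 among all probe sets. POFUT2 followed at 7.69 and a percentile of 74.0. The brighter LFNG probe set (6.24) and the brightest POFUT1 probe set (6.13) were neighbours whose arrays overlapped, at percentiles of 60.0 and 59.0. MFNG lay at 5.73 and a percentile of 53.2, close to the middle of the table. The other POFUT1 and LFNG probe sets were dimmer, at 4.88 and 3.63 for POFUT1 and 4.48 for LFNG, and the file holds no detection calls, so none could be called absent.

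None of the 8 probe sets passed the test of F3 against C2 in limma, at an adjusted p of 0.05 over all 1259 probe sets (0 of 8). Over the whole table, 0.0794% of probe sets were called, which was PIGB alone (lower in F3). At an unadjusted p under 0.05 the count was again 0 of 8, against 5.40% of all probe sets. The ordinary two-sample test called 0 of 8 at the adjusted threshold, but it called 0 of all 1259 as well, so it could not set the members apart. Limma with the replicate number as a block also called 0 of 8. With the block, the count at an unadjusted p under 0.05 was 0 of 8, against 8.02% of all probe sets. At the adjusted threshold, 0.159% of the table was called with the block, PIGB and S100A10, which like PIGB is named here because it was called. The F3 and C2 arrays overlapped for each of the 8, whereas they did not overlap for 10.3% of the table. Changes ranged from -0.064 to 0.050 on the log2 scale, 6 positive and 2 negative. Their median absolute change was 0.026, against 0.047 over all probe sets, and their median change was 0.010, against -0.0064. A p that misses the threshold does not show equal expression, so the intervals of the changes are given for each gene.

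Among the fringe genes, LFNG is the one known in the mouse as a cycling Notch target in somite formation. Its brighter probe set (NM_001040167.1_psr1_s_at) read 6.22, 6.28 and 6.17 in F3, against 6.36, 6.32 and 6.09 in C2. The C2 arrays enclosed the F3 arrays, and array 3 was the lowest in both. The log2 change was -0.030 (SE 0.078, 95% interval -0.21 to 0.15, limma adjusted p = 0.998), with F3 higher in 1 of 3 same-numbered pairs. It turned to 0.022 without C2 replicate 1 and to 0.0021 without C2 replicate 2. The second LFNG probe set (NM_001040168.1_psr1_a_at) read 4.55, 4.52 and 4.44 in F3, against 4.48, 4.46 and 4.41 in C2. Here F3 was the higher in each of the 3 pairs, by 0.064, 0.060 and 0.027, but the groups overlapped. How much of the table has 1 sign in all 3 pairs was not computed. The change was 0.050 (SE 0.054, 95% interval -0.072 to 0.17, limma adjusted p = 0.998).

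The LFNG probe sets thus had changes of opposite sign. The difference between these changes was -0.080 (95% interval -0.24 to 0.083), and an exact permutation test gave p = 0.40, two-sided, where the smallest p that 3 arrays against 3 allow is 0.10. Adjusted over the 4 pairs of probe sets compared within LFNG and POFUT1, the exact p was 1.

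MFNG (NM_002405.2_psr1_at) read 5.75, 5.78 and 5.70 in F3, against 5.73, 5.74 and 5.68 in C2. F3 was the higher in each of 3 pairs, by 0.027, 0.040 and 0.021, and the ranges overlapped. As for LFNG, no table-wide share with such pairs was computed. The change was 0.029 (SE 0.051, 95% interval -0.088 to 0.15, limma adjusted p = 0.998). RFNG (NM_002917.1_psr1_at) read 8.23, 8.26 and 8.33 in F3, against 8.24, 8.28 and 8.27 in C2. All 3 C2 arrays lay inside the F3 range, and the change was 0.014 (SE 0.052, 95% interval -0.11 to 0.13, limma adjusted p = 0.998). Expressed as folds, the interval for RFNG ran from 0.929 to 1.10 and that for MFNG from 0.941 to 1.11. RFNG turned to -0.015 without F3 replicate 3.

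**Figure D1:**
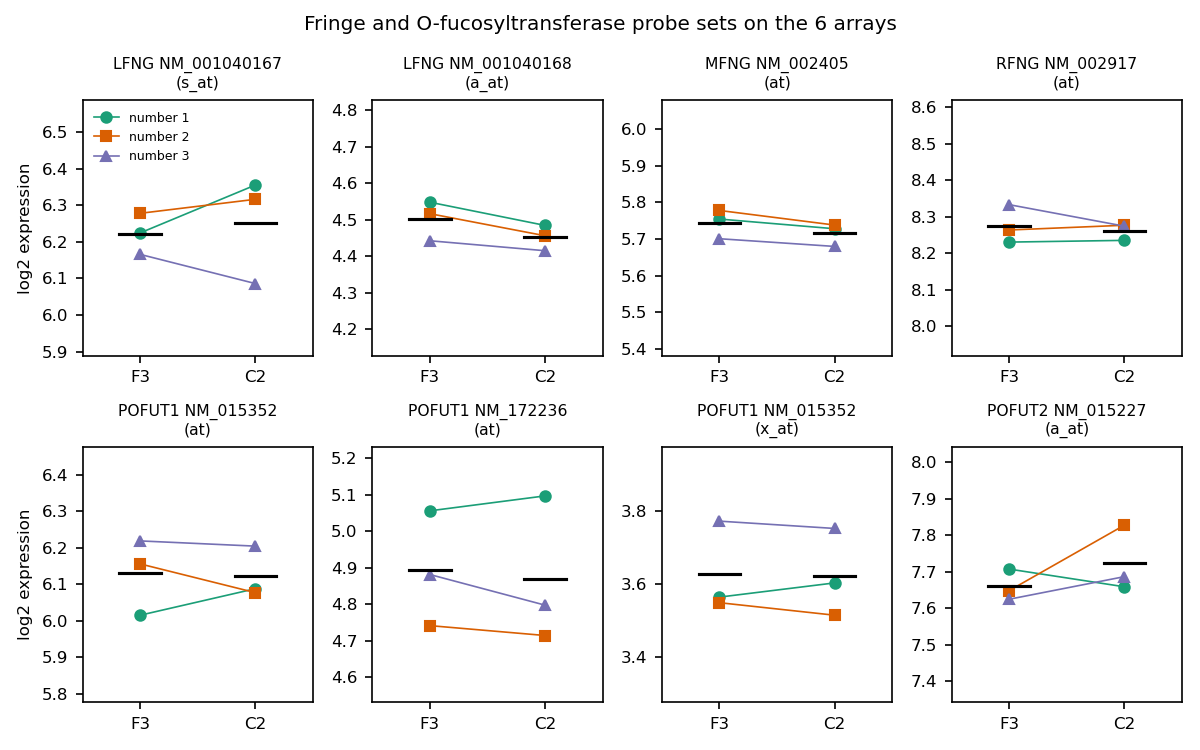
Log2 expression (vertical axes, each spanning the same range) of the 8 probe sets in F3 and C2, with 1 point per array, lines joining arrays of the same number and black bars at the means of 3 arrays. F3 and C2 overlap in each panel, and the POFUT1 probe sets keep the same array number highest in both, array 3 for both NM_015352 probe sets and array 1 for NM_172236.

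POFUT1, the O-fucosyltransferase of EGF-like repeats, was covered by 3 probe sets on 2 RefSeq transcripts. The brightest (NM_015352.1_psr1_at) read 6.01, 6.16 and 6.22 in F3, against 6.09, 6.08 and 6.20 in C2. The change was 0.0068 (SE 0.069, 95% interval -0.15 to 0.16, limma adjusted p = 0.998), and the F3 arrays enclosed the C2 arrays. It ran from -0.038 to 0.064 when single arrays were left out, negative without F3 replicate 2 or 3 and without C2 replicate 1 or 2. The dim NM_015352.1_psr1_x_at, whose suffix in the Affymetrix naming marks probes that may bind other transcripts, read 3.56, 3.55 and 3.77 in F3, against 3.60, 3.51 and 3.75 in C2. Its change was 0.0051 (95% interval -0.19 to 0.20). The probe set for the other transcript (NM_172236.1_psr1_at) read 5.06, 4.74 and 4.88 in F3, against 5.10, 4.71 and 4.80 in C2. It had the widest interval of the 8, with a change of 0.023 (95% interval -0.23 to 0.28), or folds from 0.850 to 1.22. The 3 differences between the changes of POFUT1 probe sets lay between -0.017 and 0.018, with exact permutation p-values of 0.80, 1 and 1 (adjusted p of 1 each).

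POFUT2, the O-fucosyltransferase of thrombospondin repeats, had the largest absolute change of the 8. Its 1 probe set (NM_015227.4_psr1_a_at) read 7.71, 7.65 and 7.62 in F3, against 7.66, 7.83 and 7.69 in C2. C2 array 2 stood above the other 5 arrays, which overlapped. The change was -0.064 (SE 0.062, 95% interval -0.21 to 0.077, limma adjusted p = 0.97), with F3 the higher in 1 of 3 pairs. Without C2 replicate 2 the change was -0.013, and the pairs differed by 0.048, -0.18 and -0.062. Taken over the 8 probe sets, no interval without the block reached beyond 1.22-fold higher or 1.18-fold lower in F3. With array number as a block, the widest log2 limits were narrower, at 0.165 (LFNG NM_001040168.1_psr1_a_at) and -0.208 (POFUT2). RMA shrinks the changes of dim probe sets, so these bounds concern the RMA values.

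**Figure D2:**
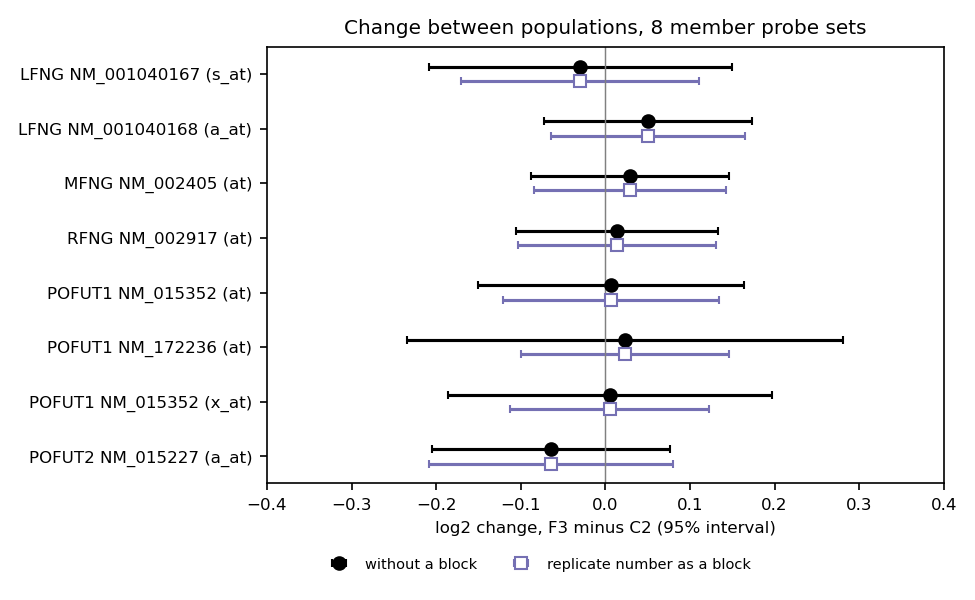
Log2 change, F3 minus C2, of the 8 probe sets (horizontal axis) with 95% limma intervals, without a block (filled circles) and with the replicate number as a block (open squares). Every interval holds 0, and that of POFUT1 NM_172236 is narrower with the block (SE 0.051) than without it (SE 0.112).

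Apart from POFUT2, each probe set had most of its spread between array numbers. For each probe set the sum of squares over the 6 arrays was divided among population, array number and the rest, which hold 20%, 40% and 40% of the degrees of freedom. Array number held 97.4% for POFUT1 NM_015352.1_psr1_x_at, 96.4% for NM_172236.1_psr1_at and 81.6% for NM_015352.1_psr1_at, while population held 0.066%, 0.62% and 0.22%. Only 10 of the 1259 probe sets had as high a share as the first of these. Over all probe sets the mean share of array number was 47.7% and its median 47.4%, and 7 of the 8 exceeded that median. The fringe probe sets lay between 65.2% (LFNG NM_001040168.1_psr1_a_at) and 78.5% (MFNG), and POFUT2 was the exception at 26.8%. For POFUT2, population held 23.6% and the rest 49.5%. The largest population share of the 8 was 31.5%, for LFNG NM_001040168.1_psr1_a_at. Population held 20.05% for MFNG, 4.14% for RFNG and 2.67% for LFNG NM_001040167.1_psr1_s_at. Its mean share over all probe sets was 19.6% and its median 11.8%. The POFUT1 transcripts did not follow the same array. Array 3 was the highest of its population for both NM_015352 probe sets and array 1 for NM_172236. Arrays of the same number carry a common suffix in their titles, and what the number stands for was not tested.

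**Figure D3:**
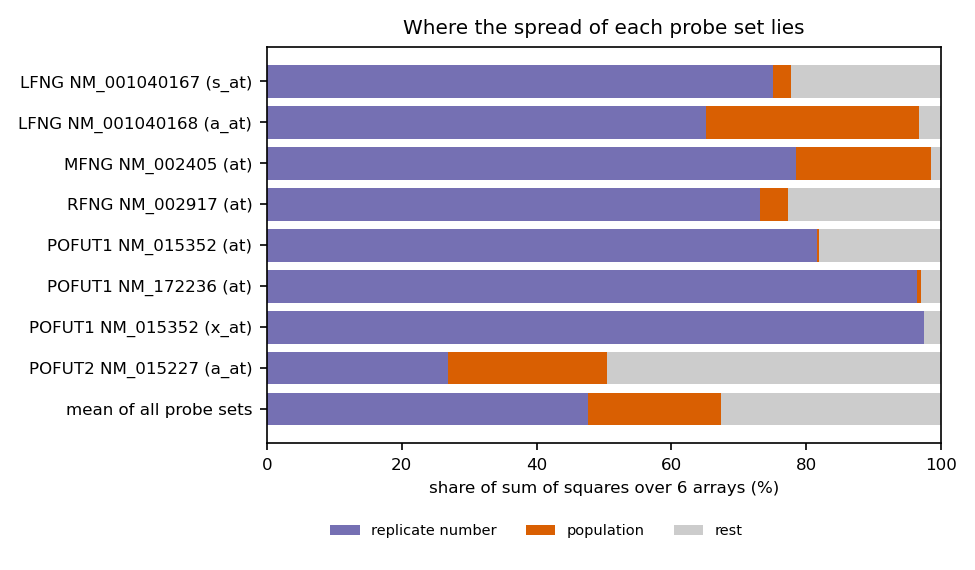
Share of each probe set's sum of squares over the 6 arrays (horizontal axis, %) that lies between array numbers, between populations and in the rest, for the 8 probe sets and as the mean of all 1259. The array number takes the larger part in each probe set but that of POFUT2, where the rest is the largest at 49.5%.

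The genes whose pattern over the 6 arrays was most like each member, by Pearson's r, are given as a description. The brightest probe set stood for each member, NM_015352.1_psr1_at for POFUT1 and NM_001040167.1_psr1_s_at for LFNG. The values below do not cover the other probe sets of these genes. For POFUT1 they were the ribosomal protein genes RPL23 (r = 0.989, Spearman's rho = 0.943) and RPL9 (r = 0.987, rho = 1). RFNG was nearest to SLC35F5 (r = 0.992, rho = 0.943) and to NANS (r = 0.975, rho = 0.771), the sialic acid synthase. For LFNG they were BTC, the growth factor betacellulin (r = 0.975), and the mannosidase MAN1B1 (r = 0.952), with a rho of 1 for each. MFNG was nearest to HS3ST6 (r = 0.976, rho = 0.943) and CLEC9A (r = 0.953, rho = 1), and POFUT2 to IDS (r = 0.968, rho = 0.829) and GALNT18 (r = 0.966, rho = 0.886). Such values are common in this table, since with only 6 arrays the best match of a typical probe set had r = 0.974, with 5% of probe sets below 0.932. The arrays share their pairing by number, which enters every one of these values.

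GDP-fucose, the donor of both O-fucosyltransferases, is made in the cytosol from GDP-mannose and carried into the secretory pathway. Of 11 listed genes of its synthesis and transport 9 were measured, and 0 rose and 0 fell past the limma threshold, with 1 at an unadjusted p under 0.05. That gene was GMDS, the dehydratase that starts the conversion, which read 7.98, 7.94 and 7.89 in F3, against 8.16, 8.15 and 8.01 in C2. All F3 arrays lay below all C2 arrays, where 10.3% of the table did not overlap in either direction. The change was -0.17 (SE 0.060, limma adjusted p = 0.84). PMM1 and PMM2, the phosphomannomutases, had changes of -0.14 and -0.10 (limma adjusted p = 0.97 each). Over the list 4 changes were positive and 5 negative, with a median of -0.031. Of 11 other listed fucosyltransferases 9 were measured, and these build terminal or core fucose. Among the 9, 0 rose, 0 fell and 0 had an unadjusted p under 0.05. Their median change was -0.046, and the smallest p belonged to FUT4 (-0.080), FUT1 (-0.10) and FUT3 (0.089).

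Of 13 listed partner enzymes of O-fucose and O-glucose glycans on EGF-like and thrombospondin repeats, 5 were measured. In limma 0 of these rose or fell, with 0 at an unadjusted p under 0.05. B4GALT1, which adds galactose to the disaccharide made by fringe, was at 8.28 ± 0.09 in F3 and 8.35 ± 0.12 in C2 (SD, n = 3 each), a change of -0.069 (95% interval -0.25 to 0.11). The sialyltransferases ST6GAL1 and ST3GAL3 had changes of -0.22 and -0.056, and the list had a median of -0.056. The F3 minus C2 differences of ST6GAL1 in same-numbered pairs were all negative, at -0.12, -0.33 and -0.20. The share of the table with 1 sign in all 3 pairs was not computed. Blocked by array number, limma gave 1 of the 5 genes an unadjusted p under 0.05, against 8.02% of all probe sets. This was ST6GAL1, with a blocked limma p of 0.0092 and an adjusted p of 0.47. Of 25 other proteins with O-fucosylated repeats only AGRN, the proteoglycan agrin, was measured, at 8.01 ± 0.03 in F3 and 7.98 ± 0.15 in C2 (SD, n = 3 each).

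The Notch receptors are the main substrates of POFUT1 and fringe. All 4 were measured, and 0 rose, 0 fell and 0 had an unadjusted limma p under 0.05. NOTCH1 averaged 7.85 ± 0.07 in F3 and 7.93 ± 0.04 in C2, a change of -0.078 (95% interval -0.21 to 0.053). NOTCH2 averaged 4.52 ± 0.10 in F3 and 4.63 ± 0.07 in C2, NOTCH3 5.04 ± 0.17 in F3 and 4.94 ± 0.11 in C2, and NOTCH4 4.79 ± 0.24 in F3 and 4.67 ± 0.07 in C2 (SD, n = 3 each). The changes of these 3 were -0.11, 0.098 and 0.12, with SEs of 0.068, 0.093 and 0.11.

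Of 7 listed ligands 5 were measured, 0 rose or fell past the limma threshold and 1 had an unadjusted p under 0.05. This was JAG1, a Jagged ligand whose signal through Notch is lowered by some fringes, with readings of 7.81, 7.42 and 7.94 in F3, against 7.21, 7.47 and 7.45 in C2. F3 array 2 fell within the C2 range, and the change was 0.35 (SE 0.13, limma adjusted p = 0.84). The Delta-like ligands DLL4, DLL3 and DLL1 had changes of 0.091, 0.061 and -0.13, and JAG2 had one of -0.13. The 3 DLL3 probe sets had changes of 0.061, 0.042 and -0.068. Of the listed targets, HES1 and HES7 were measured (2 of 8), with 0 called and 0 at an unadjusted p under 0.05. HES1 read 6.47, 5.93 and 6.11 in F3, against 6.02, 5.78 and 5.88 in C2. F3 array 2 lay below C2 array 1, so the groups overlapped. The change was 0.28 (SE 0.13; limma adjusted p = 0.97), and HES7 was at 0.00024. F3 was the higher for HES1 in each of the 3 same-numbered pairs, by 0.44, 0.15 and 0.23. As for ST6GAL1, no table-wide share with such pairs was computed. Limma blocked by array number gave HES1 an unadjusted p of 0.0060 and an adjusted p of 0.47. In that fit 8.02% of all probe sets had an unadjusted p under 0.05. The processing genes had 7 of 13 measured, with 0 called, 0 at an unadjusted p under 0.05, and a median change of -0.025. PSEN2, APH1B and RBPJ had the smallest p in that list, at -0.12, -0.055 and -0.037.

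**Figure D4:**
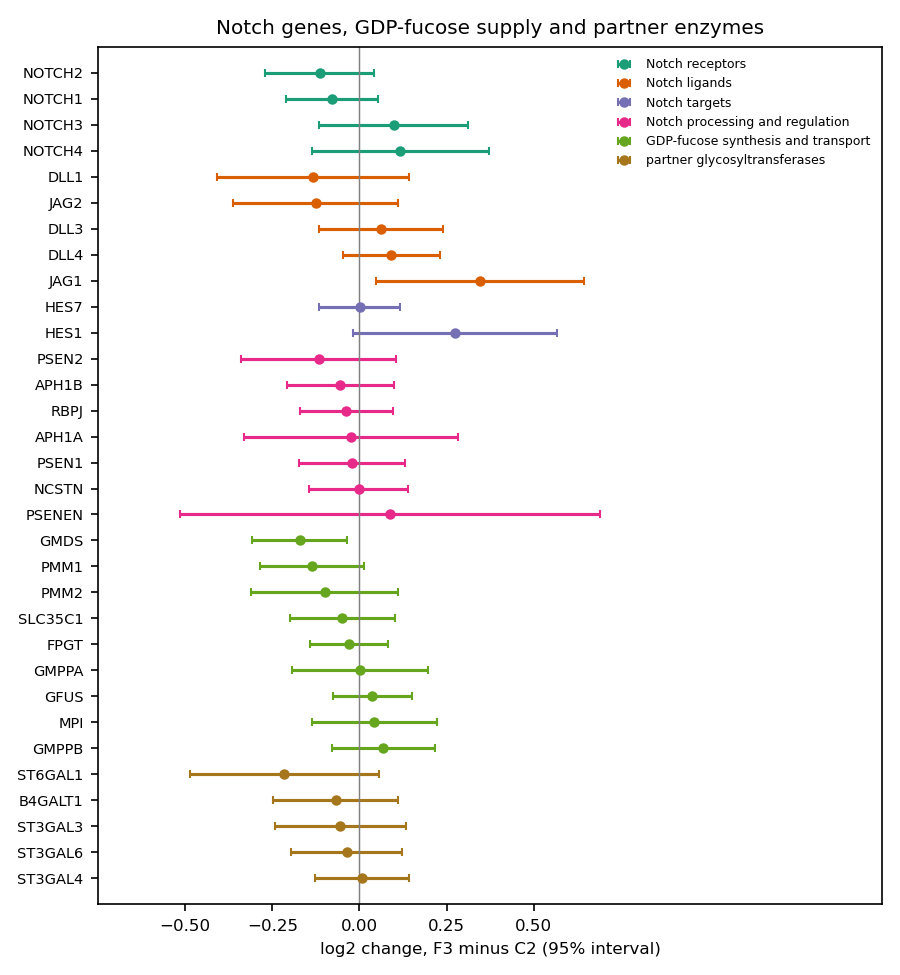
Log2 change, F3 minus C2, with 95% limma intervals for the measured Notch genes, GDP-fucose genes and partner glycosyltransferases, 1 probe set per gene. Only the intervals of JAG1 and GMDS leave out 0, and neither passed after adjustment over 1259 probe sets.

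Array medians of log2 expression ran from 5.48 to 5.51, and the lowest correlation of 2 arrays across probe sets was 0.9981. Of 15 epithelial and colon markers only MUC2 (5.13), MUC13 (4.18) and LGALS4 (4.71) were measured. They lay at percentiles of 44.1, 29.9 and 38.4 among all probe sets. Without detection calls, these 3 genes could not decide whether the colon label holds. Markers of leukocytes (7 of 17 measured) had a median level of 4.30 and those of fibroblasts and endothelium (7 of 15) one of 3.01. In limma 0 of these 17 markers was called, and CD72 and ICAM2 had an unadjusted p under 0.05, with changes of 0.23 and -0.20. Of the 7 fibroblast and endothelial markers 6 had a negative change, the largest being that of ICAM2. The summed log2 values of the 7 ran from 24.31 to 24.68 in F3 and from 24.75 to 25.16 in C2, without overlap. Single probe sets did not overlap for 10.3% of the table, and no such share was computed for sums. The lowest level among the 7 was 2.30, near the lowest value of the table (2.08). The summed leukocyte markers ran from 30.89 to 31.17 in F3 and from 30.64 to 30.91 in C2, with a slight overlap, and the epithelial ones from 13.80 to 14.34 in F3 and from 13.81 to 14.09 in C2. The part of these markers in the values above was not tested.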

How the data were processed

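Expression was measured on 6 arrays, 3 of F3 and 3 of C2. Labelled cRNA was made from Trizol-extracted total RNA following Affymetrix, per the labels. The authors deposited a table of log2 values made with RMA, per the submitters' processing notes. The RMA version and the arrays it normalized jointly are not stated there. Since RMA equalizes array distributions, a shift of most genes would not be seen, and 6 arrays limit precision. Accessions without version matched 1 symbol for 1043 of 1259 probe sets in the RefSeq table of GRCh38.p14.

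F3 was compared with C2 in limma 3.58.1 (R 4.3.3), two-sided, adjusting p-values over the whole table by Benjamini-Hochberg, with calls at 0.05. Changes are F3 minus C2. Pairs of probe sets of one gene were compared by an exact permutation test over arrays, with their intervals from limma. The fitting code was tested on simulated arrays with known changes. Members, lists and alternatives were chosen with earlier results of these data known. The genes named were all member probe sets, all Notch receptors and ligands, the 3 smallest p in each pathway list (the brightest probe set standing for a gene) and the 2 genes most like each member. Separate cultures are not stated in the labels, so the p-values rest on a spread between arrays that may be technical.

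Each array's deviation from its group mean was correlated with that of the array of the same number in the other group, which gave r = 0.52 for number 1, 0.18 for number 2 and 0.26 for number 3. Arrays of unlike number gave r from -0.38 to 0.15, the highest being F3 number 3 against C2 number 2. The shared numbers in the titles were therefore taken to pair the arrays, though number 2 stood little above that value. The fit without a block is the one reported, and blocked values are given where a call changes. Alternatives were the replicate block, centring arrays on their medians, quantile normalization of the table again, leaving out the dimmest 25% of probe sets, eBayes with an intensity trend and robust variances, weighting arrays, leaving arrays out, genes in place of probe sets, an ordinary two-sample test, other thresholds, leaving out _x_at probe sets and averaging a gene's probe sets.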

Additional observations from a re-analysis of the deposited data

How the results depend on the processing

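Over up to 19 alternatives per probe set, 0 of 141 refitted member changes passed an adjusted p of 0.05 (smallest 0.82). Of these, 117 kept their sign and 24 turned it, at values between -0.067 and 0.022, and the cause was not tested. The replicate block, the filters on probe sets, the intensity trend, genes in place of probe sets and the ordinary test left each change as it was. Such refits could not turn a sign, so the 117 include signs that were fixed in advance. Leaving out probe sets ending in _x_at was chosen after the data were seen. Outside single arrays left out, POFUT2 was at 0.0072 and POFUT1 NM_015352.1_psr1_x_at at -0.021 after repeated quantile normalization, array weights gave -0.021 for NM_015352.1_psr1_x_at and -0.024 for NM_172236.1_psr1_at, and the mean of the LFNG probe sets was 0.010. Without both arrays of number 1 LFNG NM_001040167.1_psr1_s_at was at 0.021. Without both of number 2 POFUT1 NM_015352.1_psr1_at was at -0.029 and NM_015352.1_psr1_x_at at -0.0094. Without both of number 3 RFNG was at -0.0089, and POFUT1 NM_015352.1_psr1_x_at and NM_172236.1_psr1_at were at -0.0023 and -0.0069. Leaving out single arrays in turn gave -0.11 to 0.022 for LFNG NM_001040167.1_psr1_s_at, 0.028 to 0.080 for LFNG NM_001040168.1_psr1_a_at, 0.011 to 0.051 for MFNG, -0.015 to 0.036 for RFNG, -0.097 to -0.013 for POFUT2, -0.038 to 0.064 for POFUT1 NM_015352.1_psr1_at, -0.067 to 0.070 for NM_015352.1_psr1_x_at and -0.058 to 0.14 for NM_172236.1_psr1_at. The 3 differences between POFUT1 probe sets then ran from -0.15 to 0.12, from -0.051 to 0.033, and from -0.095 to 0.14, and that between the LFNG probe sets from -0.15 to -0.045. The count over all 1259 probe sets was 1, it was 2 with the replicate block and at an adjusted p under 0.10, 68 at an unadjusted p under 0.05, 0 in the ordinary two-sample test, 0 to 2 with single arrays left out, and 0 without both arrays of number 1 or of number 3. The block changed no call for the 8 probe sets.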
